A study of Mus musculus with 24 samples.

Results

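Collagen chain genes were taken as all genes with a probe whose symbol consists of Col, a number, the letter a and a number. There were 37 such genes among the 16593 genes with a named probe, and 59 such probes among 25697. They were sorted by the kind of collagen their chains form: 8 fibrillar, 7 cartilage, 10 network-forming, 3 fibril-associated and 9 others. A gene stood for its brightest probe. Each of the 37 symbols matched a collagen gene of the reference table by its Entrez number, and 0 symbols differed. Symbol and Entrez number come from the same probe annotation, so this checks the naming and not what a probe measures.

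Collagens are secreted as helices of chains wound around each other and form most of the extracellular matrix. Type I collagen, made of Col1a1 and Col1a2 chains, gives bone and most connective tissue its fibrils, and type II takes that place in cartilage. Type IV collagen forms the sheet of basement membranes around vessels, muscle fibres and fat cells, and type VI forms beaded filaments beside it. The chains are hydroxylated and folded in the endoplasmic reticulum, trimmed outside the cell and cross-linked by lysyl oxidases.

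The data are Illumina mouse bead arrays of 24 RNA samples, 4 from heterozygous (het) and 4 from wild-type (wt) mice in each of bone, white adipose tissue (fat) and heart. All mice were C3HeB/FeJ males aged 117 days. The het mice carried 1 copy of an allele of Ednra, the type A endothelin receptor, that was induced with the chemical mutagen ENU and is named for the Y129F change, and the wt mice did not. The submitters present the mice as modelling human velocardiofacial or DiGeorge syndrome, and the mutation is carried in all cells rather than in a chosen cell type. Heart samples belong to 8 separate mice. Bone and fat were taken from the same mice, listed under 7 numbers, as 1 number appears with both genotypes (wt 3 and het 4 of both tissues). Levels of Ednra are not analysed here.

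Arrays detected 13353 to 13919 probes in bone, 12956 to 13710 in fat and 9931 to 12143 in heart, where detection means a deposited detection p under 0.05. The number of arrays limits the precision. Tissue labels were checked on a log2 intensity scale with all 24 arrays normalized together. The bone gene Bglap2 (osteocalcin) lay between 13.9 and 14.3 in bone, the fat hormone gene Adipoq between 13.9 and 14.3 in fat, and the heart myosin Myh6 between 14.2 and 14.6 in heart. Several arrays stood apart. Heart wt 4 correlated at 0.895 to 0.912 with the other 7 hearts, which correlated at 0.985 or more among themselves. Fat het 2 was high in bone transcripts, with a Bglap2 level of 8.23 against a median of 4.55 over the fat arrays. Bone wt 1 was the lowest bone array for all 3 cartilage collagens described below. Bone samples also held skeletal muscle and marrow, whose markers were called higher than in heart for 6 of 7 and 4 of 5 genes (12.2% of all genes).

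With detection on at least 4 of 8 arrays as the rule, 22 collagen genes were measured in bone, 22 in fat and 19 in heart. In all 3 tissues 13 genes were detected, and 10 were detected in 1 tissue. The classes were spread unevenly: all 8 fibrillar genes were detected in bone, 6 in fat and 4 in heart. Of the 7 cartilage genes 5 were detected in bone, 0 in fat and 2 in heart, and of the 10 network genes 4 were detected in bone, 8 in fat and 7 in heart. In no tissue did 7 genes pass: Col13a1, Col19a1, Col25a1, Col26a1, Col6a6, Col9a3 and Col8a2. Their levels ranged from 4.31 to 6.84, and without Col8a2 the highest was 5.32. The heat map of the 24 arrays shows the other 30 genes by class.

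**Figure D1:**
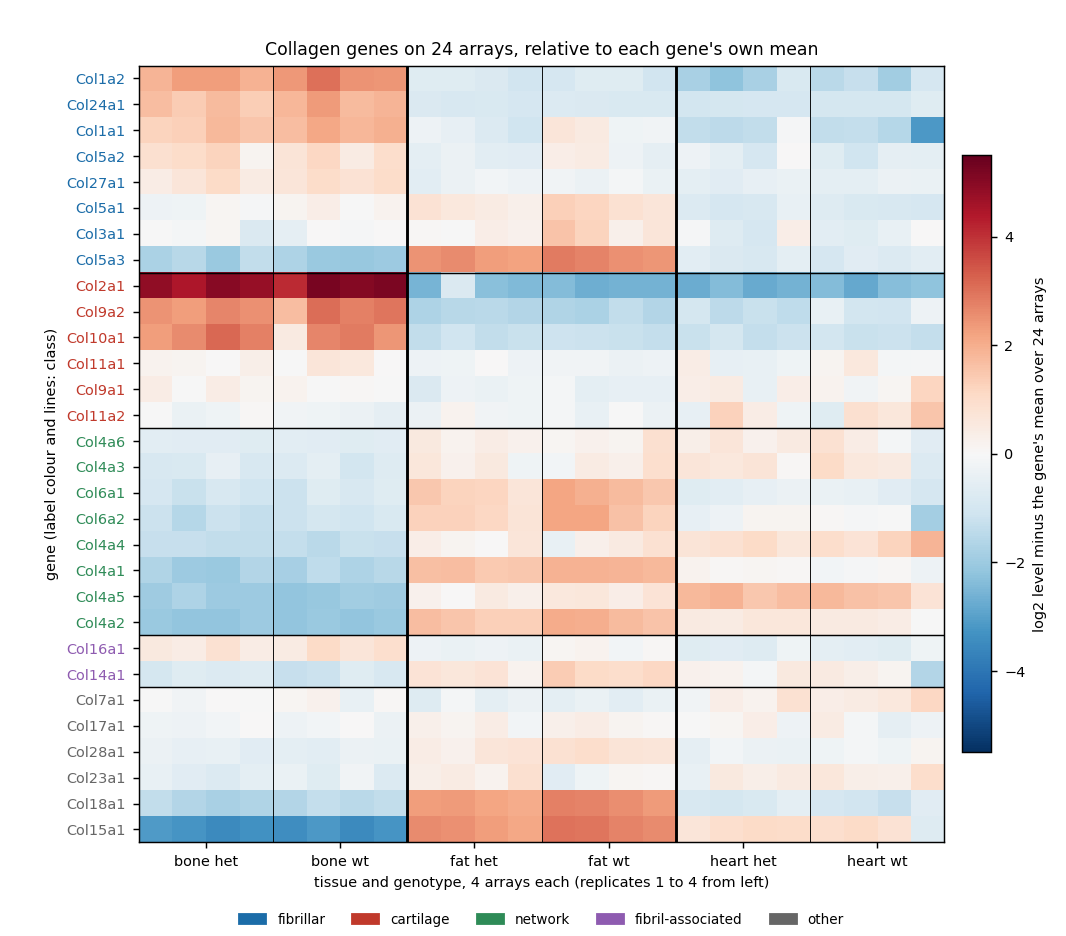
Log2 level of each collagen gene detected in at least 1 tissue, minus that gene's own mean over the 24 arrays, with 1 column per array and rows ordered by class. The bone columns are high for Col2a1, Col1a2 and Col24a1 and low for the Col4 genes and Col15a1, while the fat columns are high for Col15a1, Col18a1 and Col5a3.

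The first comparison asks in which tissue each chain was most abundant. A gene was called when its adjusted p was under 0.05 (limma, Benjamini-Hochberg over 16593 genes), its log2 difference was at least 1 and it was detected on at least 4 arrays of the brighter tissue. Between bone and heart 9 of 37 collagen genes were higher in bone (background 12.2% of all genes) and 7 lower (14.3%). Between bone and fat 8 were higher in bone (10.6%) and 12 lower (11.7%). Between fat and heart 9 were higher in fat (10.2%) and 1 lower (10.4%). The median differences of the 37 genes were -0.12, -0.05 and 0.10, beside -0.08, -0.0020 and -0.07 over all genes. In bulk tissue, fewer cells of a type and less RNA per cell cannot be told apart. Heart samples carry other mouse numbers than bone and fat, so tissue and set of mice cannot be told apart in the comparisons with heart.

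Of the 37 genes, 22 were called in at least 1 comparison and 15 in none. Bone was the highest tissue for 8 genes, called against both other tissues: Col1a1, Col1a2, Col5a2, Col24a1 and Col27a1 of the fibrillar class and Col2a1, Col9a2 and Col10a1 of the cartilage class. It was the lowest for 7 genes, Col4a1 to Col4a5, Col5a3 and Col15a1. Fat was called above both heart and bone for 7 genes: Col4a1, Col4a2, Col5a3, Col6a1, Col6a2, Col15a1 and Col18a1. In the plot of the differences between tissues, 5 of 8 fibrillar genes were called higher in bone and 1, Col5a3, lower in bone in both bone comparisons, while 0 network genes were called higher in bone. Median log2 differences between bone and heart were 1.29 for fibrillar, 0.24 for cartilage and -1.04 for network genes. Between bone and fat they were 1.06, 0.54 and -1.99 in the same order.

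**Figure D2:**
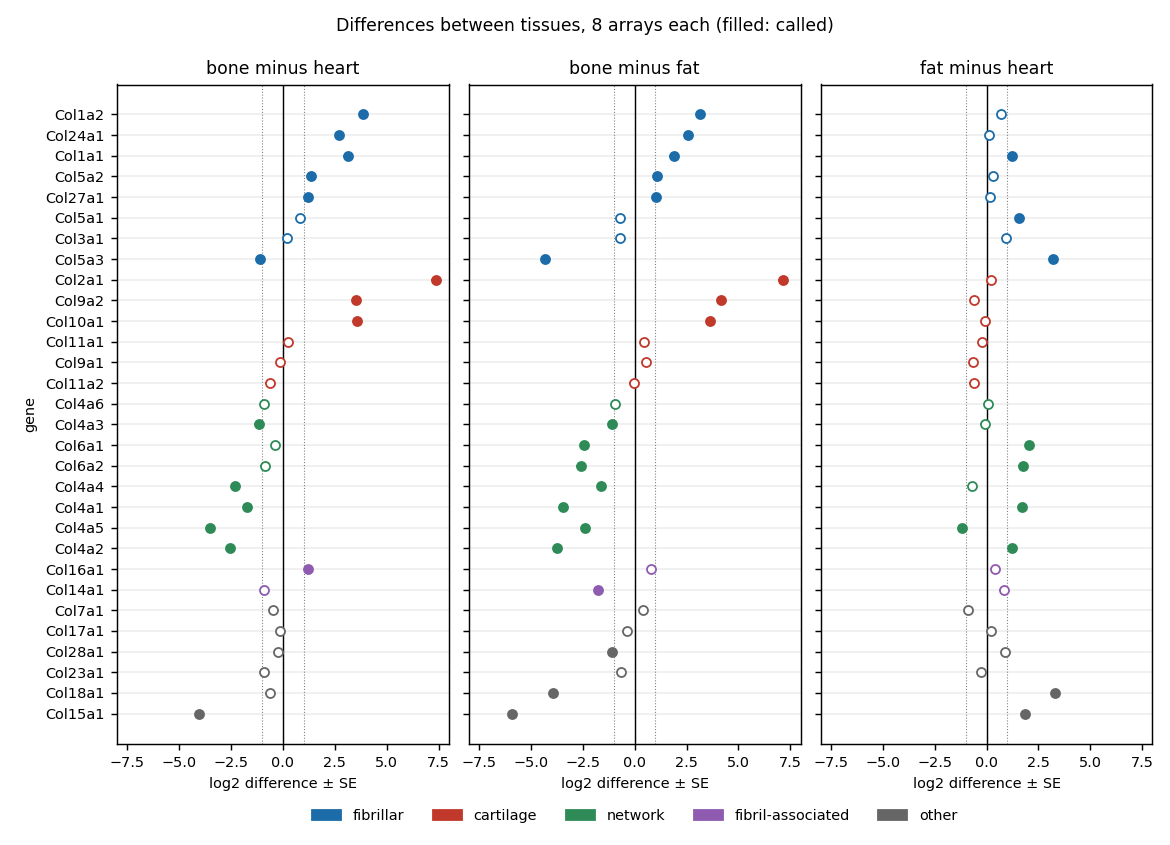
Log2 difference and standard error for each collagen gene between bone and heart, bone and fat, and fat and heart, from 8 arrays per tissue, with called genes filled. Col2a1 lies farthest to the right in both bone comparisons, at 7.36 and 7.13, and Col15a1 farthest to the left, at -4.02 and -5.90.

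Among the fibrillar genes the type I chains were highest in bone. Col1a1 had a lowest, median and highest log2 level of 12.64, 13.15 and 13.54 in bone, 10.33, 11.17 and 12.08 in fat, and 8.25, 10.05 and 11.33 in heart. Every bone array was above every fat and heart array, while fat and heart overlapped. The gene was 8.78-fold higher in bone than in heart (log2 difference 3.13, SE 0.237, adjusted p = 3.79e-11), 3.75-fold higher in bone than in fat (adjusted p = 2.29e-07) and 2.34-fold higher in fat than in heart (adjusted p = 0.000105). Without heart wt 4 the log2 difference between bone and heart was 2.90 and that between fat and heart 1.01. Col1a2, the partner chain, lay between 8.55 and 9.69 in bone, between 5.61 and 6.02 in fat and between 4.48 and 5.84 in heart, where 1 of 8 arrays detected it. It was 8.85-fold higher in bone than in fat (log2 difference 3.15, SE 0.170, adjusted p = 8.04e-14) and 14.4-fold higher than in heart, a fold that rests on the measured mean of mostly undetected heart values. Its fat and heart values overlapped, and the difference of 0.70 was under the size needed for a call.

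The minor fibrillar chains split between bone and fat. Col24a1, a fibrillar chain expressed in forming bone, lay between 6.78 and 7.73 in bone and was detected on 0 fat and 0 heart arrays. Where a gene was not detected in the dimmer tissue, a lower limit replaces the fold: Col24a1 was at least 4.25-fold higher in bone than in fat and at least 3.03-fold higher than in heart (adjusted p = 9.27e-18 and 4.78e-18). Col27a1, a fibrillar chain of cartilage, was at least 1.71-fold and at least 1.22-fold higher in bone in the same comparisons. Col5a2, which joins type I collagen in mixed fibrils, was 2.09-fold higher in bone than in fat and 2.59-fold higher than in heart, although bone and fat values overlapped and 5 of 8 fat and 1 of 8 heart arrays detected it. Its partner Col5a1 had levels of 10.88 to 11.50 in bone, 11.44 to 12.44 in fat and 10.22 to 10.77 in heart, so that bone and fat overlapped. It was called between fat and heart alone (2.92-fold, adjusted p = 1.46e-12).

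Col5a3, the third type V chain, stood apart from the other fibrillar genes. Its levels were 9.29 to 9.93 in fat, 4.98 to 5.69 in bone and 6.14 to 6.54 in heart, with no overlap between the tissues. It was 20.0-fold lower in bone than in fat (log2 difference -4.32, SE 0.110, adjusted p = 6.49e-20) and 9.27-fold higher in fat than in heart (adjusted p = 1.69e-17). Col3a1, the type III chain of soft connective tissue, was called in none of the 3 comparisons, with medians of 8.48 in bone, 8.87 in fat and 8.04 in heart and overlapping ranges. A second, dimmer Col3a1 probe gave log2 differences of 1.19 between bone and heart and 1.91 between fat and heart. The brightest gave 0.20 and 0.92. The dimmer probe was detected on 0 heart, 8 bone and 8 fat arrays.

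Cartilage collagens were detected mainly in bone. Col2a1, the type II chain, lay between 11.63 and 12.75 in bone, with a median of 12.44, between 4.81 and 6.73 in fat and between 4.71 and 5.32 in heart. It was not detected on any heart array and was at least 110-fold higher in bone than in heart (log2 difference 7.36, SE 0.204, adjusted p = 3.12e-19). Of the fat arrays 2 of 8 detected it, and the log2 difference between bone and fat was 7.13. A second Col2a1 probe gave 6.95 and 6.93 in these comparisons. Col9a2, a type IX chain on the surface of cartilage fibrils, was 11.6-fold higher in bone than in heart and 17.6-fold higher than in fat, with levels of 8.16 to 9.52 in bone. Only 2 of 8 heart and 1 of 8 fat arrays detected it, so these folds rest on mostly undetected values. Col10a1, the chain of hypertrophic growth-plate cartilage, lay between 6.25 and 8.90 in bone and was detected on no fat or heart array. It was at least 6.01-fold higher in bone than in heart and at least 8.43-fold higher than in fat (adjusted p = 1.2e-12 and 1.08e-12).

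The other cartilage chains were close to background. Col11a1 and Col11a2, the type XI chains, had medians of 5.13 and 4.95 in bone, 4.73 and 4.97 in fat, and 4.90 and 5.69 in heart, and neither was called. Col9a1 had a median of 5.55 in bone, 5.06 in fat and 5.72 in heart and was not called. Of 11 cartilage genes other than collagens, 5 were called higher in bone than in heart (background 12.2%) and 6 higher in bone than in fat (background 10.6%). The leucine-rich cartilage protein gene Chad differed by 6.69 and 7.38 on the log2 scale and the cartilage oligomeric matrix protein gene Comp by 2.22 and 4.48.

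The lowest cartilage collagen values in bone came from 1 array. On bone wt 1 Col2a1 was 11.63, Col9a2 8.16 and Col10a1 6.25, each the lowest of the 8 bone arrays, while the other 7 arrays gave 11.94 to 12.75, 8.74 to 9.52 and 8.01 to 8.90. The genes Chad, Comp and Acan (aggrecan) were lowest on the same array, at 11.56, 8.99 and 6.60. The summed level of the cartilage list was 12.12 on bone wt 1 and 12.60 to 12.93 on the others. The osteoblast gene Ibsp (bone sialoprotein) was also lowest there, at 12.10, and Bglap2 was 13.99. Without bone wt 1 the counts of collagen genes called between tissues did not change. Fat het 2 gave the highest Col2a1 level of the fat arrays, 6.73 against 4.81 to 5.22 on the other 7, beside osteocalcin and sialoprotein levels of 8.23 and 6.89. The plot of the bone arrays shows these genes.

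**Figure D3:**
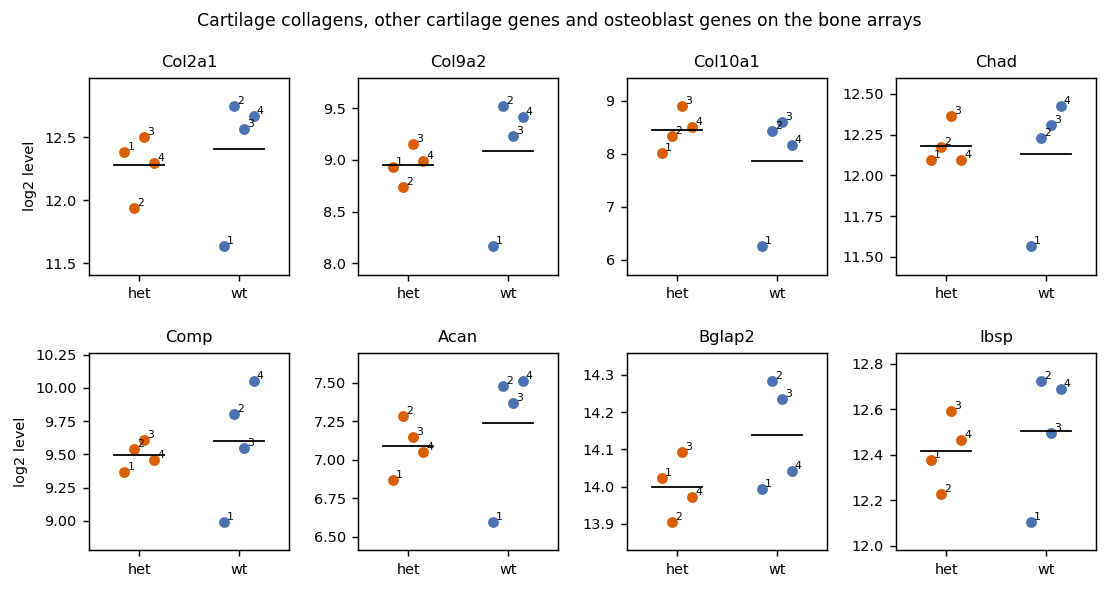
Log2 level on the 4 het and 4 wt bone arrays for 3 cartilage collagens, 3 other cartilage genes and 2 osteoblast genes, with points numbered by replicate and a line at the group mean (each vertical axis has its own range and does not start at 0). Wt 1 is the lowest point for Col2a1 (11.63), Col9a2 (8.16), Col10a1 (6.25), Chad (11.56), Comp (8.99), Acan (6.60) and Ibsp (12.10).

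Of the 10 network genes 7 were called lower in bone than in fat (background 11.7%) and 5 lower in bone than in heart (background 14.3%), with 0 higher in bone. Between fat and heart 4 were higher in fat (background 10.2%) and 1, Col4a5, was lower (background 10.4%). Col4a1, a chain of the type IV network found in all basement membranes, had a lowest, median and highest level of 13.59, 13.87 and 14.04 in fat, 10.07, 10.44 and 10.72 in bone, and 11.83, 12.19 and 12.30 in heart. The ranges of the 3 tissues did not overlap. The gene was 10.9-fold lower in bone than in fat (log2 difference -3.44, SE 0.0721, adjusted p = 2.84e-21), 3.29-fold lower in bone than in heart (adjusted p = 6.1e-16) and 3.31-fold higher in fat than in heart (adjusted p = 7.65e-16). Its partner Col4a2 was 13.5-fold lower in bone than in fat, 5.85-fold lower in bone than in heart and 2.31-fold higher in fat than in heart. These genes lie side by side, Col4a1 at chr8:11198423-11312889 and Col4a2 at chr8:11312805-11449287 of GRCm38.p6, and their annotated spans share 85 bases.

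The tissue-restricted type IV chains were not detected on any bone array. Col4a5 lay between 4.42 and 4.90 in bone, between 6.63 and 7.34 in fat and between 7.35 and 8.52 in heart. It was at least 8.90-fold lower in bone than in heart (adjusted p = 2.89e-17) and at least 3.98-fold lower in bone than in fat (adjusted p = 5.67e-14). Col4a5 was lower in fat than in heart, by 1.16 on the log2 scale (SE 0.126, adjusted p = 2.8e-08). The authors' deposited intensities, which were normalized within each tissue, gave a difference of 0.19 the other way. Their median difference between fat and heart over all genes was 0.29, against -0.07 in the main setting. By its brightest probe Col4a4 was at least 3.93-fold lower in bone than in heart and at least 2.41-fold lower than in fat. That probe gave log2 differences of -2.32 and -1.61. A dimmer Col4a4 probe gave -1.48 and -0.57 and was detected on 7 heart arrays and 1 fat array. For Col4a3 the limits were 1.80-fold and 1.69-fold, and bone and heart values overlapped. Col4a6 was detected on 8 fat and 3 heart arrays and was not called. Col4a3 and Col4a4 are neighbours on chromosome 1, with annotated spans that share 114 bases, and Col4a5 and Col4a6 lie 1274 bases apart on chromosome X.

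The type VI chains Col6a1 and Col6a2 were highest in fat. Col6a6 was detected on 0 arrays, and Col6a3 is not among the 37 genes. Col6a1 had a lowest, median and highest level of 12.79, 13.58 and 14.27 in fat, 10.90, 11.21 and 11.46 in bone, and 11.17, 11.59 and 11.79 in heart. Fat did not overlap with either tissue, while bone and heart overlapped. The gene was 5.37-fold lower in bone than in fat (adjusted p = 7.99e-15) and 4.10-fold higher in fat than in heart (adjusted p = 2.75e-13). Other Col6a1 probes gave log2 differences of -1.27 and -2.23 between bone and fat, where the brightest gave -2.42. Col6a2 was 6.12-fold lower in bone than in fat and 3.34-fold higher in fat than in heart. Its difference between bone and heart was -0.87 and not called, but without heart wt 4 it was -1.10 and called (adjusted p = 5.41e-08). The short-chain network gene Col8a2 was not detected in enough arrays of any tissue.

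Col15a1 and Col18a1, whose chains carry heparan or chondroitin sulphate and sit at basement membranes, were also highest in fat. Col15a1 lay between 12.57 and 13.45 in fat, between 6.94 and 7.33 in bone and between 9.76 and 11.52 in heart, with no overlap. It was 59.7-fold lower in bone than in fat (log2 difference -5.90, SE 0.171, adjusted p = 7.45e-19), the widest difference of any collagen gene between these tissues apart from Col2a1. It was 16.3-fold lower in bone than in heart. Col18a1, the source of endostatin, lay between 11.93 and 12.67 in fat, 8.13 and 8.58 in bone, and 8.65 and 9.35 in heart. It was 15.2-fold lower in bone than in fat (adjusted p = 1.3e-20) and 9.75-fold higher in fat than in heart (adjusted p = 2.57e-19). Among the fibril-associated genes, Col16a1 was 2.30-fold higher in bone than in heart and Col14a1 3.36-fold lower in bone than in fat. Without heart wt 4 Col14a1 was also called lower in bone than in heart (-1.16, adjusted p = 6.96e-09). Col28a1 was at least 1.72-fold lower in bone than in fat.

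Endothelial and fibroblast markers differed between the tissues beside these genes. Of 6 endothelial markers 5 were called lower in bone than in heart (background 14.3%) and 5 lower in bone than in fat (background 11.7%). Between fat and heart 0 endothelial markers were called (background 10.2% higher and 10.4% lower). Their summed log2 level was 10.70 to 10.91 in bone, 12.33 to 12.56 in fat and 12.29 to 12.95 in heart. Fat and heart overlapped in this sum. Higher in fat than in heart were 6 of 6 adipocyte, 2 of 6 smooth muscle and pericyte and 2 of 4 mesothelium markers (background 10.2%). Of these markers 0 were lower in fat than in heart (background 10.4%). Of 10 fibroblast markers 1 was higher and 6 were lower in bone than in heart (background 12.2% and 14.3%). Between bone and fat 0 of them were higher in bone and 4 were lower (background 10.6% and 11.7%). Between fat and heart 2 of them were higher in fat and 2 were lower (background 10.2% and 10.4%). Their summed level was 13.91 to 14.30 in bone, 14.64 to 14.82 in fat and 14.22 to 14.58 in heart. Of 10 osteoblast and osteocyte markers 7 were higher in bone than in heart (background 12.2%) and 8 higher in bone than in fat (background 10.6%). The part of these cells in the collagen differences was not tested.

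Genes for collagen processing and collagen receptors were counted in the same comparisons. Of 29 collagen processing genes, 1 was higher and 6 were lower in bone than in heart (background 12.2% and 14.3%). Between bone and fat 1 was higher in bone and 3 were lower (background 10.6% and 11.7%). Between fat and heart 3 were higher in fat and 6 were lower (background 10.2% and 10.4%). The cross-linking enzyme Lox was higher in bone and in fat than in heart, by 2.40 and 2.86 on the log2 scale. The prolyl hydroxylase genes P4ha1 and P4ha2 were lower in bone than in heart, by log2 differences of -2.27 and -2.18, and lower in fat than in heart (-2.05 and -1.51). Plod2, a lysyl hydroxylase, was higher in bone than in fat by 1.61, while the folding genes Crtap and Serpinh1 were lower in bone than in fat (-1.74 and -1.63). Of 9 collagen receptor genes, 1 was higher and 3 were lower in bone than in heart (background 12.2% and 14.3%). Between bone and fat 0 were higher in bone and 4 were lower (background 10.6% and 11.7%). In fat against heart 1 was higher and 0 were lower (background 10.2% and 10.4%). Itga11, an integrin chain that binds fibrillar collagen, was higher in bone than in heart by 1.26. The receptor genes Ddr1, Itgb1 and Itga1 were lower in bone than in heart (-2.94, -1.91 and -1.31). Lower in bone than in fat were Ddr2, Itga1, Ddr1 and Itgb1 (-2.56, -2.30, -2.01 and -1.56). Ddr2 was higher in fat than in heart by 3.04, and 8 fat, 2 bone and 0 heart arrays detected it.

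The stretch just upstream of the first transcribed base is printed for 4 of 6 genes whose windows were searched: Col1a2 (fibrillar, highest in bone), Col9a2 and Col10a1 (cartilage, highest in bone) and Col18a1 (highest in fat). The sequences are the 250 bases before the RefSeq start in GRCm38.p6, read 5′ to 3′ on the strand of the gene, for Col1a2 (chr6:4505368-4505617, plus strand), Col9a2 (chr4:121039316-121039565, plus strand), Col10a1 (chr10:34389731-34389980, plus strand, inside the annotated bounds of Nt5dc1) and Col18a1 (chr10:77166531-77166780, minus strand). Capitals mark matches on either strand to the TATA box core TATAAA, to the CCAAT box (those letters), to the GC box GGGCGG, to TGTGGT, the core letters bound by RUNX factors, or to ACAATG, those bound by SOX factors, and no matches overlap.
Col1a2: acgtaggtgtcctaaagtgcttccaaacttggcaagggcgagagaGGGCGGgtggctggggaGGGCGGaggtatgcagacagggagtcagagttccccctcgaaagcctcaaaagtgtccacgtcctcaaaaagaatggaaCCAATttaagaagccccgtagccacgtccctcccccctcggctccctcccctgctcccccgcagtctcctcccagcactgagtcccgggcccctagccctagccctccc
Col9a2: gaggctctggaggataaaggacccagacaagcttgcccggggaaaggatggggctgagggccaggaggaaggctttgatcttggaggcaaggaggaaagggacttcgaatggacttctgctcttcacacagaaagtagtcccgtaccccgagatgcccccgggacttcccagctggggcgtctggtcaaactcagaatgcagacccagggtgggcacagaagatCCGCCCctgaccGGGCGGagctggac
Col10a1: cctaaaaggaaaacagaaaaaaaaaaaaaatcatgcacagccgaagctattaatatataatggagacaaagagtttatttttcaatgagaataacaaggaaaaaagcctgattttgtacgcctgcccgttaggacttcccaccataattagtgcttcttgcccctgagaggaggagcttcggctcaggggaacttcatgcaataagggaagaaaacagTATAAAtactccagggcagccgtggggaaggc
Col18a1: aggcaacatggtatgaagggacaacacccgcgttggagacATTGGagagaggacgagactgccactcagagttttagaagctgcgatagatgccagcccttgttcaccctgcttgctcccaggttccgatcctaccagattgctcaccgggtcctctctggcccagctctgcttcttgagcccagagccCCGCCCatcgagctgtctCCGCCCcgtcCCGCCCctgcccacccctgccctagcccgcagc
Col10a1 has TATAAA at 27 to 32 bases upstream, a match found in 14.9% of 19827 windows of this length, and its GC content is 41.6%, where Col1a2, Col9a2 and Col18a1 have 62.0%, 60.4% and 62.0%. Col1a2 has 1 CCAAT box (34.4% of windows) and 2 GC boxes (26.8% of windows), Col9a2 has 2 GC boxes, and Col18a1 has 1 CCAAT box and 3 GC boxes. The RUNX letters (15.1% of windows) and the SOX letters (12.0% of windows) are in none of these 4 windows. The windows of the other 2 genes searched, Col24a1 (highest in bone) and Col6a1 (highest in fat), hold none of the 5 motifs and are not printed. A match is a stretch of letters and was not tested as a binding site.

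The second comparison asks whether the Ednra allele moved collagen transcripts, and in none of the tissues was a collagen gene called. Here each tissue was normalized by itself, genes detected on at least 4 of 8 arrays were tested, and a call needed an adjusted p under 0.05 (limma, Benjamini-Hochberg over all genes of the tissue). Calls numbered 0 of 22 collagen genes in bone, 0 of 22 in fat and 0 of 19 in heart. Over all genes 0.0423% were called higher and 0.0317% lower in bone, 0.0108% higher and 0% lower in fat, and 0% in either direction in heart. The smallest adjusted p among collagen genes was 0.0943 in bone, 0.0653 in fat and 0.609 in heart. The plot of genotype differences shows most points left of 0 in bone and fat and right of 0 in heart.

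**Figure D4:**
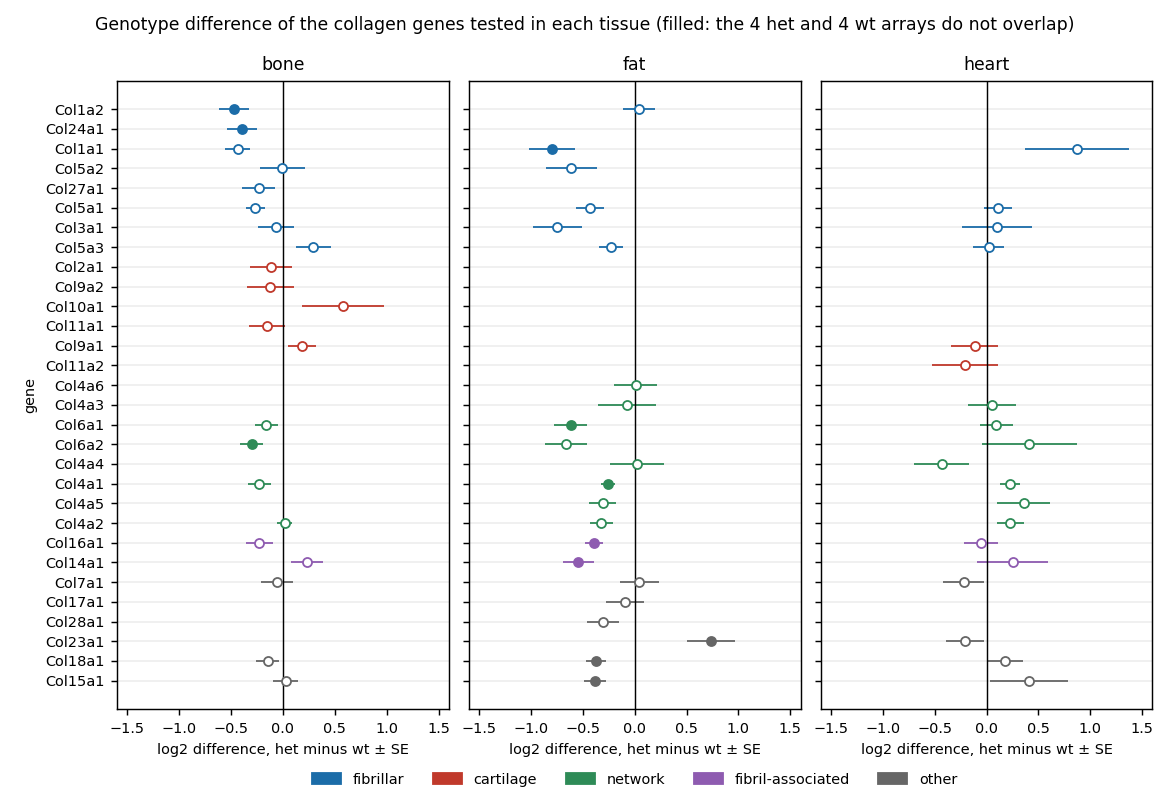
Log2 difference between het and wt, with its standard error, for the collagen genes tested in each tissue (4 het and 4 wt arrays), with filled points where the groups do not overlap. Below 0 lie 16 of 22 genes in bone, 17 of 22 in fat and 6 of 19 in heart, and 0 genes passed the adjusted threshold.

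In bone, 16 of 22 collagen genes had lower means in het (background 56.2%) and 6 had higher means (background 43.8%), with a median log2 difference of -0.13 beside -0.03 over all 9460 genes. Unadjusted p was under 0.05 for 5 genes with lower het means (background 10.4%) and 0 with higher het means (background 8.05%). Col1a1 had levels of 12.62, 12.68, 13.19 and 12.89 on the het arrays, against 13.07, 13.50, 13.22 and 13.35 on the wt arrays. On 1 het array, het 3, the level reached into the wt range, and the difference was -0.44 (SE 0.120, adjusted p = 0.0943). Col1a2 had 8.62, 9.05, 9.04 and 8.67 on the het arrays, against 9.14, 9.74, 9.22 and 9.16 on the wt arrays, without overlap (-0.47, SE 0.145, adjusted p = 0.118). The values of Col24a1 were 7.19, 6.90, 7.21 and 6.87 in het, against 7.32, 7.81, 7.25 and 7.37 in wt, again without overlap (-0.39, adjusted p = 0.167).

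Of the 8 fibrillar genes 7 had negative differences in bone, among them Col5a1 at -0.27 (adjusted p = 0.151). Col6a2 did not overlap either, with 8.33 to 8.70 in het and 8.73 to 9.06 in wt (-0.30, adjusted p = 0.166), so that 3 genes were without overlap, all lower in het (background 5.56%, and 4.31% for higher in het). The positive differences with the smallest p belonged to Col5a3 (0.29), Col14a1 (0.23) and Col10a1 (0.58), and each had an adjusted p of 0.362 or more. Without bone wt 1 the Col10a1 difference was 0.045 and that of Col14a1 0.14. Col3a1 and Col6a1 differed by -0.07 and -0.16, and Col4a1 and Col4a2 by -0.23 and 0.02. A dimmer Col3a1 probe gave 0.50, against -0.07 for the brightest. Bone wt 2 was the highest bone array for 12 of the 22 genes. Without bone wt 3, whose mouse number also stands under het 4, 0 collagen genes were called (background 4.46% higher and 4.13% lower). The smallest adjusted p of a collagen gene was then 0.0516. Over all genes, 805 of 9375 were called in that fit, against 7 of 9460 with all arrays. Without both wt 3 and het 4, collagen calls in bone numbered 0 (smallest adjusted p 0.0630). All 4 macrophage markers had positive differences in bone (background 43.8%), and their summed level was 11.80 to 12.11 in het and 11.03 to 11.90 in wt. Their part in the collagen values was not tested.

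In fat, 17 of 22 collagen genes had lower means in het (background 45.1%) and 5 higher (background 54.9%), with a median log2 difference of -0.32 beside 0.03 over all 9292 genes. Unadjusted p was under 0.05 for 13 genes with lower het means (background 14%) and 1 with a higher het mean (background 15.6%). Without overlap were 7 genes lower in het (background 7.67%) and 1 higher in het (background 8.94%). Col1a1 had 11.56, 11.37, 11.06 and 10.73 on the het arrays, against 12.43, 12.24, 11.60 and 11.64 on the wt arrays. Every het array lay below every wt array, and the difference was -0.79 (SE 0.221, adjusted p = 0.0736). Col16a1, a fibril-associated chain, had 9.86, 9.74, 9.83 and 9.75 in het, against 10.24, 10.33, 9.97 and 10.20 in wt (-0.39, SE 0.0852, adjusted p = 0.0653). Its groups did not overlap, and this was the smallest adjusted p of the 22 genes in fat.

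Of the 8 network genes tested in fat 6 had lower means in het, and Col4a4 and Col4a6 had means higher by 0.02 and 0.0090. Col6a1 had 13.78, 13.57, 13.52 and 13.10 in het, against 14.41, 14.21, 14.04 and 13.78 in wt (-0.62, SE 0.156, adjusted p = 0.0709). The ranges of Col6a1 touch at 13.78 when rounded and do not overlap. Other Col6a1 probes gave -0.52 and -1.43. Col4a1 had 13.98, 14.02, 13.78 and 13.79 in het, against 14.18, 14.19, 14.16 and 14.07 in wt (-0.26, adjusted p = 0.0709). The remaining genes without overlap and lower in het were Col14a1 (-0.54), Col15a1 (-0.38) and Col18a1 (-0.37). Col6a2 (-0.66), Col3a1 (-0.75) and Col5a1 (-0.44) overlapped in part, and Col4a2 was at -0.32. Col1a2 did not share the direction of Col1a1, with 6.07 to 6.52 in het and 6.08 to 6.52 in wt (0.04, adjusted p = 0.880). Its only probe was detected on 8 fat arrays but at levels far below those of Col1a1 (10.73 to 12.43). A difference at so low a level may be compressed. The gene higher in het without overlap was Col23a1, a transmembrane collagen, with 6.41, 6.51, 6.24 and 7.00 in het, against 5.24, 5.73, 6.17 and 6.08 in wt (0.73, adjusted p = 0.0862). Col7a1, the anchoring fibril chain, differed by 0.04.

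**Figure D5:**
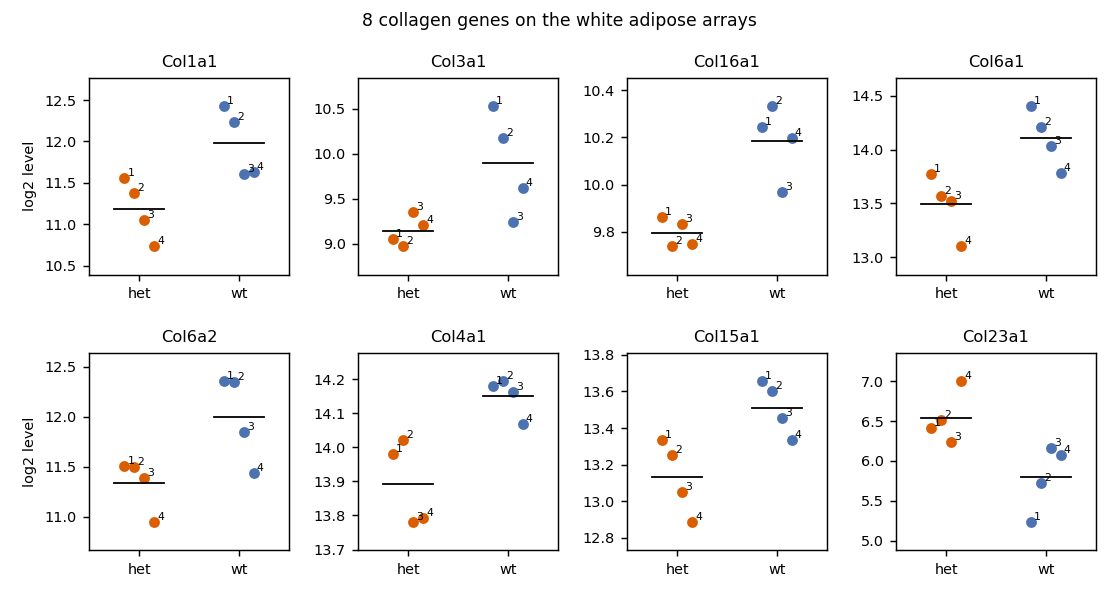
Log2 level of 8 collagen genes on the 4 het and 4 wt white adipose arrays, with points numbered by replicate and a line at the group mean (each vertical axis has its own range and does not start at 0). Het 4 is lowest for Col1a1 (10.73), Col6a1 (13.10), Col6a2 (10.95) and Col15a1 (12.89), and wt 1 is highest for Col1a1 (12.43), Col3a1 (10.53), Col6a1 (14.41) and Col15a1 (13.65).

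The number of calls in fat depended on which arrays were included. Het 4 was the lowest array for 13 of 22 genes, wt 1 the highest for 10 and wt 2 for 5. Without wt 4, 10 collagen genes were called, all lower in het (background 6.64%). Without wt 3 Col16a1, Col3a1 and Col1a1 were called, also lower in het (background 4.17%). The mouse number of wt 3 also stands under het 4, and without both of these arrays calls numbered 0 (smallest adjusted p 0.0736). Without het 2, calls numbered 0. Array brightness moved with genotype: raw mean intensity was 553 to 666 on the het and 702 to 820 on the wt fat arrays, so that brightness and genotype cannot be told apart. With brightness as a covariate the median difference was -0.11 (-0.0024 over all genes), 16 of 22 genes were negative and 0 were called. In that fit 302 of all 9292 genes had an unadjusted p under 0.05, and 0 were called. Of 4 macrophage markers 4 had negative differences (background 45.1%), with a summed level of 11.84 to 12.17 in het and 12.27 to 12.72 in wt. The summed fibroblast level was 14.73 to 14.80 in het and 14.64 to 14.82 in wt, and the adipocyte level was 15.76 to 15.90 in het and 15.82 to 15.99 in wt. Their part in the collagen values was not tested.

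Genes that process collagen were mostly negative in fat too. Of 22 processing genes tested, 20 had lower means in het (background 45.1%), 11 of them at an unadjusted p under 0.05 (background 14%), with a median of -0.21 and 0 calls. Of 6 receptor genes tested 4 were negative, 3 at an unadjusted p under 0.05. In bone 13 of 22 processing genes and 5 of 6 receptor genes were negative (background 56.2%), with medians of -0.03 and -0.09 and 0 calls. In heart 12 of 21 processing genes were negative (background 64%), with a median of -0.0047 and 0 calls.

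In heart, 13 of 19 collagen genes had higher means in het (background 36%) and 6 had lower means (background 64%), with a median of 0.10 beside -0.09 over all 8535 genes. Unadjusted p was under 0.05 for 1 gene with a higher het mean (background 1.71%) and 0 with a lower one (background 3.84%). The gene was Col4a1, with 11.88, 11.77, 11.80 and 11.74 in het, against 11.53, 11.63, 11.77 and 11.36 in wt (0.23, SE 0.0934, adjusted p = 0.609). Its groups overlapped at wt 3, and 0 collagen genes were without overlap in heart (background 2.8% higher and 5.23% lower in het). Col4a2 differed by 0.23 and Col1a1 by 0.87. The Col1a1 values were 9.42, 9.33, 9.42 and 10.78 in het, against 9.40, 9.44, 9.19 and 7.42 in wt, where het 4 and wt 4 lay far from the rest. Without wt 4 the Col1a1 difference was 0.38, the Col6a2 difference was -0.10, where it had been 0.41, and 11 of 19 genes were positive (background 44.6%) with a median of 0.05. The negative differences with the smallest p were those of Col4a4 (-0.43), Col23a1 (-0.21) and Col7a1 (-0.22), and without wt 4 they were -0.19, -0.099 and -0.084. Col3a1 and Col6a1 each differed by 0.10, and Col1a2 was not tested in heart. Dimmer heart probes gave -0.47 for Col6a1, the other direction from its brightest probe, -0.31 for Col4a4 and 0.43 for Col18a1. Every het heart array was brighter than every wt one, with raw mean intensities of 433 to 477 in het and 368 to 421 in wt, so that brightness and genotype cannot be told apart in heart either. With brightness as a covariate 14 of 19 genes were positive, with a median of 0.11 (-0.04 over all genes) and 0 calls. In that fit only 20 of all 8535 genes had an unadjusted p under 0.05, and 0 were called. It could therefore show little about single genes.

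The genotype effects of bone and fat were compared directly for the 13 collagen genes detected in both tissues and in heart. The fit held 7659 genes, with the animal as a block. The consensus correlation of that block was -0.044, and 1 mouse number stands under both genotypes (wt 3 and het 4). Col14a1, a fibril-associated chain, was the single gene past the threshold. Its difference between het and wt was 0.22 in bone and -0.56 in fat, and the effect in bone minus the effect in fat was 0.79 (SE 0.218, adjusted p = 0.0311; background 5.68% in this direction and 6.59% in the other). In bone its values were 5.77, 6.07, 6.01 and 6.02 on the het arrays, against 5.47, 5.54, 6.09 and 5.86 on the wt arrays, which overlap. In fat they were 7.95, 7.82, 7.92 and 7.37 in het, against 8.56, 8.22, 8.13 and 8.32 in wt, which do not. The adjusted p was above 0.05 without bone wt 1, bone wt 2, bone het 2, bone het 3, fat wt 1, fat wt 2 or fat het 4, and reached 0.0671. Of the 13 genes 5 had an unadjusted p under 0.05 (background 31.5%).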

How the data were processed

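Log2 levels came from raw intensities that the authors deposited for 24 Illumina bead arrays. Extraction used Trizol followed by RNeasy, and amplification gave biotin-labelled cRNA, per the labels' protocols. The submitters' processing notes name GenomeStudio 2011.1. The authors also deposited a table of background-subtracted intensities, normalized within each tissue as its values show (upper quartiles nearly coincide within a tissue), with a detection p-value per probe. Its intensities served as an alternative and its detection p-values as the filter. The plan had assumed the reverse contents, as the naming of the table implies.

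Raw intensities were background-corrected with normexp from detection p-values, raised by an offset of 16, quantile-normalized over 24 arrays (tissues) or within a tissue (genotype) and tested with limma 3.58.1 under R 4.3.3 (lmFit, eBayes with a variance trend, statmod 1.5.0 for blocks). Probes with 1 gene symbol numbered 23978, and 1719 had none. Errors of differences are standard errors, and n is 8 arrays per tissue or 4 per group. P-values measure the spread between these samples. The naming rule took every member by tissue and, by genotype, the 3 smallest p-values in each direction and fixed chains. All collagen genes, classes and lists were chosen with earlier results of these data known. The lists cover cell type markers, collagen processing and collagen receptors. The genotype fits, the comparison of bone and fat effects and, for tissues, the comparison of bone with heart alone were tested on simulated data. The simulated noise was drawn independently for each array. Replicate numbers of het and wt arrays correlated in their deviations at -0.09 to 0.06 (bone), -0.05 to 0.40 (fat) and -0.18 to 0.26 (heart), so the numbers were not used to pair samples. Alternatives were other background, scaling, filter, threshold, probe, weight and block choices, the authors' intensities, wild-type arrays alone, brightness as a covariate and each array left out.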

Additional observations from a re-analysis of the deposited data

Results flagged for a closer look

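Among 126 groups of 4 arrays, 8 collagen values lay far from the other 3 arrays of their group by Dixon's test, and chance flags about 1 in 20 groups. Levels are on the log2 scale. In heart, wt 4 gave 4 of these values: Col15a1 at 9.10 (the other wt arrays gave 10.69 to 11.00), Col1a1 at 7.42 (9.19 to 9.44), Col4a2 at 11.57 (12.04 to 12.11) and Col6a2 at 7.08 (9.10 to 9.23). Heart het 4 gave Col1a1 at 10.78, where the other het arrays gave 9.33 to 9.42. In bone, wt 2 gave Col1a2 at 9.74 (9.14 to 9.22), wt 1 gave Col2a1 at 11.62 (12.56 to 12.73) and het 2 gave Col7a1 at 5.34 (5.54 to 5.57). The difference of Col14a1 between het and wt was 0.22 in bone and -0.56 in fat, and the test of bone minus fat gave 0.79, whose adjusted p was above 0.05 when any of 7 arrays was left out.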

How the results depend on the processing

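Counts were taken under 126 combinations of result and alternative other than an array left out, and 105 were within 1.5 times the reported count. Of the collagen genes 7 were lower in bone than in heart, and 4 without background correction and 14 with no minimum fold. Without background correction 5 were higher and 7 lower in bone than in fat. Lower in fat than in heart was 1 gene as reported, 0 without background correction, with an offset of 50, with median scaling or with the authors' intensities, and 5 with no minimum fold. Higher in fat than in heart were 19 with the authors' intensities, under which the median of all genes was 0.29 (-0.07 as reported), and 14 with no minimum fold. Median scaling moved the all-gene medians to -0.30, 0.22 and -0.41 in the bone to heart, bone to fat and fat to heart comparisons. For genotype, bone gave 1 call at adjusted p under 0.10 and 1 with array weights. Fat gave 12 calls at adjusted p under 0.10, 13 with array weights, 1 with detection under 0.01 on all 8 arrays and 11 with a replicate block (10 lower and 1 higher in het). The replicate block is not supported by a pairing in the labels, and 3 of 4 fat, 0 of 4 bone and 1 of 4 heart pairs correlated best with their own number. It gave 0 calls in bone and heart. The bone and fat effects differed for 1 gene as reported, 3 at adjusted p under 0.10, 2 without background correction, 0 without a filter and 2 without the arrays of the shared mouse number. With each array left out, these calls ranged from 0 to 3, calls in fat from 0 to 10, and calls in bone and heart stayed at 0. Tissue counts then ranged from 6 to 8 higher and 11 to 12 lower in bone than in fat, 9 higher and 7 to 9 lower in bone than in heart, and 9 to 10 higher and 1 lower in fat than in heart. Single genes turned sign as follows. With median scaling, Col9a1 between bone and heart was 0.19, Col23a1 and Col4a3 between fat and heart 0.20 and 0.26, and het minus wt was -0.036 for Col4a2 in bone and -0.039 for Col1a2 in fat. With the authors' intensities, values between bone and heart were 0.0051 for Col14a1, 0.15 for Col18a1, 0.13 for Col6a1, 0.60 for Col7a1 and 0.96 for Col9a1, and between fat and heart 0.18 for Col11a2, 1.51 for Col23a1, 1.61 for Col4a3, 0.93 for Col4a4, 0.19 for Col4a5, 0.37 for Col7a1 and 0.53 for Col9a1. The cause of these changes was not tested. With each array left out, 15 of 2156 values of single genes turned, in these results: Col9a1 between bone and heart ranged from -0.22 to 0.025, and Col4a3 and Col4a6 between fat and heart from -0.28 to 0.030 and from -0.066 to 0.18; het minus wt ranged in heart from -0.17 to 0.33 for Col3a1, -0.042 to 0.18 for Col6a1 and -0.10 to 0.61 for Col6a2, in bone from -0.18 to 0.12 for Col3a1 and -0.013 to 0.041 for Col4a2, and in fat from -0.042 to 0.14 for Col1a2 and -0.0037 to 0.18 for Col7a1.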
